A study of Mus musculus with 12 samples.

Results

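The genes of the major histocompatibility complex (MHC) and of antigen presentation were followed through the kidney RNA of 12 mouse libraries. They were taken by name: every gene of the table whose symbol began with H2-, the mouse name of the MHC, and 9 genes named beside them, namely B2m, Cd74, Ciita, Nlrc5, Tap1, Tap2, Tapbp, Psmb8 and Psmb9. This gave 45 genes of the 33188 in the table, 36 of them by the prefix. The rule reads symbols and no measured value. All animals were wild type, and 4 libraries were labelled XZSW, 4 HUA and 4 CTL. XZSW was taken as the hyperuricemia model treated with Xin-Zi-Sheng-Wan decoction, HUA as the same model without it and CTL as the control group. The model was made with potassium oxonate, which inhibits uricase, and hypoxanthine, a purine precursor of uric acid. The labels gave no dose, time, age, sex or mouse strain. They also did not say that each library was a different mouse, so every p-value rests on a spread between libraries that may be technical.

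MHC class I molecules are made of a heavy chain and beta-2 microglobulin (B2m). They show peptides cut by the proteasome in the cytosol and pumped into the endoplasmic reticulum by the transporter Tap1-Tap2, where tapasin (Tapbp) helps load them. MHC class II molecules are alpha-beta pairs, built with the invariant chain (Cd74), whose remnant the exchange factor H2-DM replaces with peptides from endosomes. Class II is known chiefly from dendritic cells, macrophages and B cells, and other cells, tubular epithelium among them, can make it under interferon gamma. The transactivator Ciita drives class II genes and Nlrc5 drives class I genes.

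Of the 45 genes, 41 lay on chromosome 17. B2m lay on chromosome 2, Ciita on 16, Cd74 on 18 and Nlrc5 on 8. Class II promoters are known for a compound element in which an X box stands upstream of a Y box, and interferon-responsive promoters for ISRE and GAS elements. Promoters of 31 of the 45 genes were found in the RefSeq table (GRCm38.p6). The 6 stretches printed here, each the 150 bases before the RefSeq start, show the class II element in the beta chains H2-Eb1 and H2-DMb1, its counterparts in H2-DMb2 and H2-Aa, and the interferon-type matches of B2m and Psmb8. Capitals mark matches, on either strand, to the X box (AG, any 2 bases, AC, any base, GATG), the Y box (CCAAT, or ATTGG on the other strand), the ISRE (GAAA, any 2 bases, GAAA) and the GAS element (TTC, any 3 bases, GAA). None of the marked matches in these 6 stretches overlaps another. H2-Eb1 lay at chr17:34305717-34305866, H2-DMb1 at chr17:34153041-34153190, H2-DMb2 at chr17:34145099-34145248 and Psmb8 at chr17:34198045-34198194, all on the plus strand. H2-Aa lay at chr17:34287824-34287973 on the minus strand and B2m at chr2:122147537-122147686 on the plus strand. RefSeq starts differed from the gene coordinates deposited with the counts. By the latter, H2-DMb2 began at 34143307 and Psmb8 at 34197721, so their stretches lay within the gene. H2-DMb1 began at 34153072, inside its stretch.
H2-Eb1: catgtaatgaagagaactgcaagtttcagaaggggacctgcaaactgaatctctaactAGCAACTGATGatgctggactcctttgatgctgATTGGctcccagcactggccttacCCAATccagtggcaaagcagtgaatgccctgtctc
H2-DMb1: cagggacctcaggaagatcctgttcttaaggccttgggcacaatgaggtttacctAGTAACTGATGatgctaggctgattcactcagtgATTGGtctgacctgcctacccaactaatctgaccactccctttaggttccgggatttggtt
H2-DMb2: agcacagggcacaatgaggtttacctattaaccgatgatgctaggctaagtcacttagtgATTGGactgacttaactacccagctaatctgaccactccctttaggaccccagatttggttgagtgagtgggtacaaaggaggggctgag
H2-Aa: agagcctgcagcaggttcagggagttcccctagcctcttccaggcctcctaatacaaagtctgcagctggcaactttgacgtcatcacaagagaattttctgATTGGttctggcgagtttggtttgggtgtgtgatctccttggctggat
B2m: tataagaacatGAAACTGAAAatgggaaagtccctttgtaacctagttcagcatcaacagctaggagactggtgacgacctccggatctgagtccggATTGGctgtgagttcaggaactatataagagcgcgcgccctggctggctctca
Psmb8: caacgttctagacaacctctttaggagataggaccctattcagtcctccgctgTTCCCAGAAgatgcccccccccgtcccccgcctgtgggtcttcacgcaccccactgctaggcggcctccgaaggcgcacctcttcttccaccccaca

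In H2-Eb1 the first base of the X box stood 92 bases before the start and that of the Y box nearest to it 59, a distance of 33 bases. In H2-DMb1 the positions were 95 and 61, a distance of 34. H2-DMb2 and H2-Aa held a Y box match at 90 and 48 bases and no match to these X box letters. Over the 250 bases before the start, the X box letters were found in 6 of the 31 genes (19.35%), which were H2-DMb1, H2-Eb1, H2-Eb2, H2-Oa and both genes listed as H2-M10. Of 32851 promoters of the same length, counted by promoter and not by gene, 0.8158% held them. The X box stood 33 bases from the Y box in H2-Eb2 and 98 in H2-Oa. In the H2-M10 genes, which are class I, the distances were 146 and 147. The Y box letters were found in 27 of 31 genes (87.1%), against 33.85% of all promoters. The ISRE letters were in B2m, H2-T22 and H2-T23 and in 2.977% of all promoters, and the GAS letters in H2-DMb2, H2-M3 and Psmb8 and in 7.02% of all promoters. These are letter matches and describe the windows only. The windows are those of the reference build, which may differ from those of these mice.

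Library totals were 51.6 to 74.3 M counts. Levels are given as TMM-scaled FPKM, the deposited FPKM values set to each library's count total and its edgeR scaling factor. They are per length, so genes can be set side by side where their reads map equally well. Transporter genes of the proximal tubule were present in all libraries: 6 of them summed to 1288, 1751, 1366 and 1205 in XZSW1 to XZSW4, to 462, 777, 402 and 237 in HUA1 to HUA4 and to 1509, 1372, 1480.2 and 1157 in CTL1 to CTL4. The 12 libraries fell into 2 kinds by GC content. In HUA2, HUA3, HUA4, XZSW3 and XZSW4 levels relative to CTL rose with the GC content of the transcript, by 0.226 to 0.358 log2 units per 10 percentage points, and in HUA1, XZSW1, XZSW2 and the 4 CTL libraries the slope was between -0.0644 and 0.0475. Slopes were taken against the mean of the 4 CTL libraries, so a flat mean slope in CTL was fixed in advance. Only the spread of the CTL slopes was free. The kinds cross the HUA and XZSW groups, while every CTL library is of the flat kind. Kind and group can therefore be told apart only in part in any comparison with CTL. Transcript length divided the libraries otherwise: per doubling of length, levels relative to CTL changed by 0.248 log2 units in HUA1, 0.171 in XZSW1 and 0.125 in XZSW2, by -0.0961 to 0.0477 in the 5 rising libraries and by -0.0162 to 0.00931 in CTL. HUA1, XZSW1 and XZSW2 were thus flat by GC content but set apart from CTL by length, and the part of either slope in the results was not tested.

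Enough counts for a test were held by 37 of the 45 genes, 34 of them with a mean of at least 10 counts in each of the 3 groups. The exceptions were H2-M2, H2-M5 and H2-Oa. The 8 genes not tested were H2-Bl, H2-Eb2, both genes listed as H2-M10, H2-M6-ps, H2-M9, H2-Q3 and H2-T3, with at most 25 counts in any library, and H2-Q3 was at 0 in all 12. One tested gene is not an MHC molecule in spite of its symbol: H2-Ke6 encodes a steroid and fatty acid dehydrogenase. Of the tested genes, 11 shared more than 10% of their 75-base stretches with another gene, so reads may have been split between copies there. Among the 11 were H2-Q and H2-T genes and the pair H2-DMb1 and H2-DMb2. The largest share was that of H2-Ke6, 65.49%, with the gene Gm20427, so its values below carry this limit most. The gene listed as H2-Ea is annotated as a polymorphic pseudogene, since some laboratory strains cannot transcribe it. Here it was counted in all 12 libraries, at 20.9 to 92.2 TMM-scaled FPKM. The labels name no strain, and whether the MHC genes of these mice match the reference build was not tested. A mismatch could alter how reads of variable MHC genes were mapped.

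In HUA kidneys genes of both presentation pathways were higher than in CTL kidneys. Of 37 tested genes 17 rose and 0 fell (edgeR's quasi-likelihood test, adjusted p under 0.05 over 19772 genes), where 14.9% of all tested genes rose and 12.8% fell. Those shares are 2950 and 2538 genes, and with library totals in place of the scaling factor 5779 rose and 1320 fell. All 17 were among the 34 with a mean of at least 10 counts in each group. The count of 0 lower was 1 (H2-Ke6) at an unadjusted p under 0.05, beside 17.7% of all tested genes, and 1 (the same gene) with DESeq2, beside 14.9%. The median log2 change was 0.82 over the 37, beside 0.06 over all tested genes. In 14 of the 37 all 4 HUA libraries stood above all 4 CTL libraries, as they did in 15.1% of all tested genes, and in 0 they stood below, as they did in 15.1%. Library totals moved the median of all genes by 0.33, and under it 4 small changes turned their sign: H2-K2, H2-Q7, H2-T22 and H2-T23.

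The peptide exchange factor of the class II pathway held the largest log2 changes of the 37 genes, those of H2-DMb2 and H2-DMb1. H2-DM pairs the alpha chain H2-DMa with a beta chain from H2-DMb1 or H2-DMb2. H2-DMb1 had 5.65, 5.42, 7.75 and 7.51 TMM-scaled FPKM in HUA1 to HUA4, against 0.745, 1.22, 0.881 and 2.25 in CTL1 to CTL4 (log2 change 2.36, SE 0.45, adjusted p = 0.00206). H2-DMb2 had 7.23, 8.30, 9.74 and 10.5 in HUA1 to HUA4, against 0.955, 1.42, 1.09 and 2.88 in CTL1 to CTL4 (log2 change 2.49, SE 0.44, adjusted p = 0.00139). H2-DMa had 3.45, 4.20, 4.41 and 5.91 in HUA1 to HUA4, against 0.981, 1.43, 1.02 and 1.83 in CTL1 to CTL4 (log2 change 1.76, SE 0.36, adjusted p = 0.00310). For all 3 genes the lowest HUA library was above the highest CTL library, which was CTL4 each time. H2-Oa and H2-Ob, the chains of the factor that restrains H2-DM and is known from B cells, were near 0 in both groups, with at most 0.0846 in HUA and 0.175 in CTL, and neither was called.

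Of the class II chains that carry peptide to the cell surface, 3 of the 4 tested rose, where 14.9% of all tested genes rose. The beta chain H2-Ab1 had 31.1, 39.5, 48.2 and 38.8 in HUA1 to HUA4, against 8.43, 14.9, 8.70 and 20.4 in CTL1 to CTL4 (log2 change 1.58, SE 0.34, adjusted p = 0.00434). H2-Eb1, also a beta chain, had 21.2, 38.4, 44.6 and 21.2 in HUA1 to HUA4, against 7.64, 11.6, 9.09 and 17.7 in CTL1 to CTL4 (log2 change 1.45, SE 0.40, adjusted p = 0.0172). H2-Ea, the alpha chain that pairs with it, had 62.8, 91.0, 92.2 and 41.4 in HUA1 to HUA4, against 22.5, 32.2, 20.9 and 42.7 in CTL1 to CTL4 (log2 change 1.28, SE 0.34, adjusted p = 0.0124). HUA and CTL did not overlap for H2-Ab1 and H2-Eb1, whereas for H2-Ea the value of HUA4 lay under that of CTL4. H2-Aa, the alpha partner of H2-Ab1, had 8.20, 14.7, 14.8 and 5.11 in HUA1 to HUA4, against 2.55, 5.65, 3.33 and 7.15 in CTL1 to CTL4, with HUA4 inside the CTL range, and did not pass (log2 change 1.19, SE 0.45, adjusted p = 0.0627). Without HUA4 its log2 change was 1.46 with an adjusted p of 0.0298, without CTL4 1.48 with 0.0454 and without XZSW1 1.19 with 0.0391, so the call turned with any 1 of these 3 libraries left out. It also passed with DESeq2, with library totals, in both limma fits, with the replicate block and in the fit on the 8 libraries of the comparison (adjusted p of 0.0188 to 0.0444). H2-Eb1 lost its call without CTL1, CTL3 or HUA3, with adjusted p-values of 0.0509 to 0.0559.

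The invariant chain Cd74 was the most abundant class II transcript, with 121, 181, 244 and 159.8 TMM-scaled FPKM in HUA1 to HUA4, against 36.9, 67.6, 42.9 and 95.3 in CTL1 to CTL4 (log2 change 1.54, SE 0.41, adjusted p = 0.0126). Again HUA and CTL did not overlap, and CTL4 was the highest of its group. Ciita, the class II transactivator, was low, with 0.268, 0.724, 0.290 and 0.240 in HUA1 to HUA4, against 0.200, 0.122, 0.0839 and 0.143 in CTL1 to CTL4 (log2 change 1.46, SE 0.46, adjusted p = 0.0298). HUA2 alone stood far above the rest of its group. Without HUA2 the log2 change was 0.98 and the adjusted p 0.103, and the call was also lost without CTL2, CTL3 or CTL4 (adjusted p of 0.0618 to 0.0864).

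**Figure D1:**
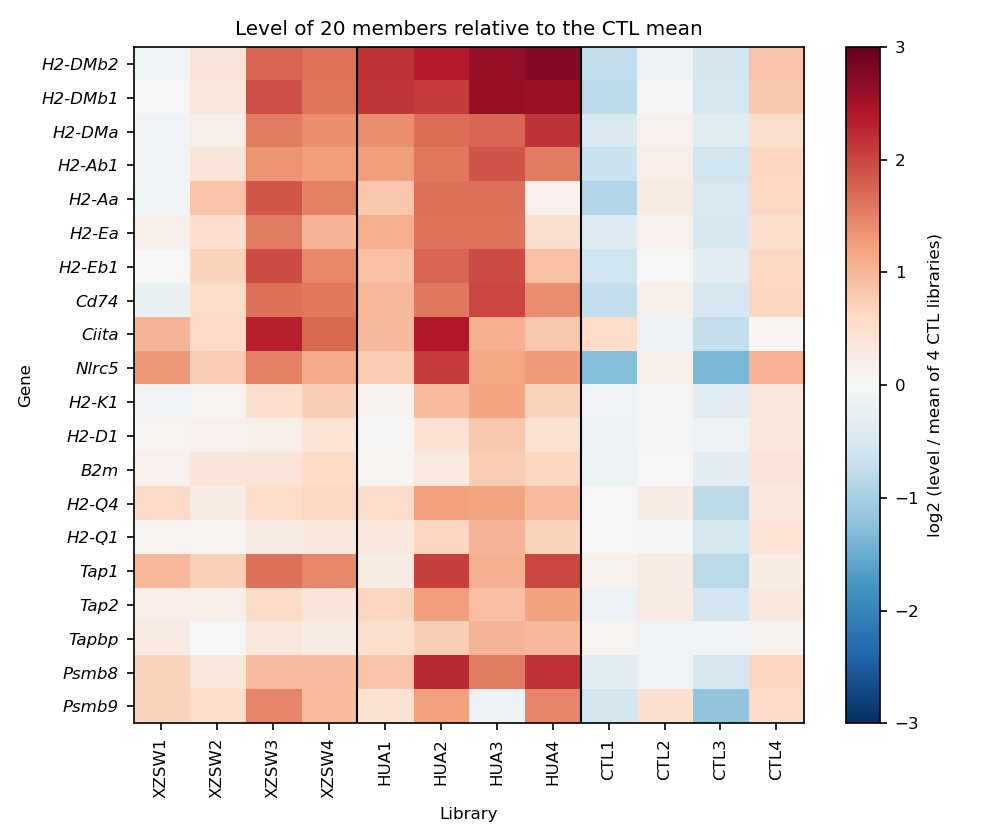
Level of 20 of the genes in each library as the log2 ratio to the mean of the 4 CTL libraries, with genes in rows by role and XZSW, HUA and CTL libraries in columns from left to right. Most class II cells at the top are red in the HUA libraries and in XZSW3 and XZSW4, with H2-Aa in HUA4 near the CTL mean, and the class II rows are paler in XZSW1 and XZSW2 than in XZSW3 and XZSW4.

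Of B2m, the light chain of class I molecules, and the classical heavy chains H2-K1 and H2-D1, only H2-K1 rose. B2m was the most abundant transcript of the 45, with 244, 282, 387 and 357 TMM-scaled FPKM in HUA1 to HUA4, against 207, 229.6, 179.8 and 301 in CTL1 to CTL4, and did not pass (log2 change 0.47, SE 0.19, adjusted p = 0.0805). The classical heavy chain H2-K1 rose, with 18.9, 33.9, 39.8 and 28.0 in HUA1 to HUA4, against 16.0, 17.7, 13.7 and 22.2 in CTL1 to CTL4 (log2 change 0.79, SE 0.24, adjusted p = 0.0257). H2-D1, the other classical heavy chain, had 72.0, 96.3, 123 and 94.9 in HUA1 to HUA4, against 63.3, 68.7, 63.3 and 87.9 in CTL1 to CTL4 (log2 change 0.45, SE 0.17, adjusted p = 0.0676), which did not pass. In all 3 genes the low end of HUA was HUA1 and lay inside the CTL range. Without HUA1 the adjusted p was 0.0236 for B2m and 0.0115 for H2-D1, and without CTL4 it was 0.0303 for B2m and 0.0370 for H2-D1. With DESeq2 both passed, at 0.0477 and 0.0365. The call of H2-K1 was lost without CTL1, CTL2, CTL3 or HUA3 (adjusted p of 0.0585 to 0.0807).

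Among the other class I heavy chains, which include nonclassical molecules and pseudogenes, 3 of the 16 tested (18.8%) rose and 0 fell, a share near the 14.9% of all tested genes. At an unadjusted p under 0.05, 5 rose and 0 fell, where 20.9% of all genes rose, and with DESeq2 4 rose and 0 fell, where 18% of all rose. H2-Q4 had 10.2, 16.6, 16.0 and 13.7 in HUA1 to HUA4, against 6.97, 8.28, 4.10 and 8.84 in CTL1 to CTL4 (log2 change 1.00, SE 0.22, adjusted p = 0.00523), with no overlap. H2-Q1 had 3.30, 4.13, 5.43 and 4.25 in HUA1 to HUA4, against 2.66, 2.61, 1.87 and 3.51 in CTL1 to CTL4 (log2 change 0.68, SE 0.20, adjusted p = 0.0239), with HUA1 under CTL4. H2-Q1 lost its call without CTL1, CTL2, CTL3 or HUA3 (adjusted p of 0.0570 to 0.0707). H2-Q10, which encodes a secreted class I molecule known from liver, was at 0.355 to 0.605 in HUA and 0.0866 to 0.253 in CTL (log2 change 1.40, SE 0.41, adjusted p = 0.0209), a call lost without CTL2, CTL3 or HUA3 (adjusted p of 0.0525 to 0.0638). H2-T23, the mouse Qa-1 molecule that NK cell receptors read, had 11.1, 17.5, 14.0 and 11.2 in HUA1 to HUA4, against 15.2, 18.1, 12.1 and 19.1 in CTL1 to CTL4, with the groups overlapping (log2 change -0.26, SE 0.19, adjusted p = 0.330). H2-T22, a ligand of some gamma-delta T cells, was likewise not called, at a log2 change of -0.15 (adjusted p = 0.390). The class I transactivator Nlrc5 had 0.336, 0.838, 0.446 and 0.480 in HUA1 to HUA4, against 0.0814, 0.226, 0.0766 and 0.410 in CTL1 to CTL4 (log2 change 1.39, SE 0.48, adjusted p = 0.0452). CTL4 lay inside the HUA range, and Nlrc5 lost its call in 10 of the 12 fits that left out 1 library, with adjusted p-values of 0.0515 to 0.119, staying past the threshold only without CTL4 or HUA1.

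All 3 genes of peptide transport and loading rose, and 1 of the 2 immunoproteasome subunits, where 14.9% of all tested genes rose. Tapasin (Tapbp) had 25.6, 30.9, 37.4 and 35.9 TMM-scaled FPKM in HUA1 to HUA4, against 19.6, 16.9, 17.3 and 19.9 in CTL1 to CTL4, the smallest adjusted p of the 37 (log2 change 0.82, SE 0.14, adjusted p = 0.00115). Tap2 had 6.13, 9.31, 7.26 and 8.97 in HUA1 to HUA4, against 3.46, 4.62, 2.62 and 4.86 in CTL1 to CTL4 (log2 change 1.03, SE 0.20, adjusted p = 0.00268). HUA and CTL were apart for both. Tap1, its partner in the transporter, had 1.03, 3.66, 1.86 and 3.52 in HUA1 to HUA4, against 0.951, 1.05, 0.502 and 1.03 in CTL1 to CTL4, with HUA1 at the level of CTL (log2 change 1.5001, SE 0.38, adjusted p = 0.00969). Psmb8, a catalytic subunit of the immunoproteasome, had 2.33, 6.14, 3.80 and 5.83 in HUA1 to HUA4, against 1.04, 1.18, 0.919 and 2.03 in CTL1 to CTL4, without overlap (log2 change 1.80, SE 0.32, adjusted p = 0.00153). Psmb9, another such subunit, had 0.812, 1.43, 0.534 and 1.68 in HUA1 to HUA4, against 0.412, 0.840, 0.268 and 0.902 in CTL1 to CTL4 (log2 change 0.86, SE 0.43, adjusted p = 0.158), where HUA1 and HUA3 lay inside the CTL range and the change did not pass.

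With the GC kind of library as a further term in the fit, 7 of the 37 genes (18.9%) rose in HUA against CTL and 1 fell, where 12.8% of all tested genes rose and 11.1% fell. Those that rose were H2-DMb2, H2-DMb1, H2-DMa, H2-Ab1, Psmb8, Tap2 and Tapbp, and the one that fell was H2-Ke6. In that fit H2-DMb2 had a log2 change of 1.75 with an adjusted p of 0.00968 and H2-DMb1 1.64 with 0.0153. Among genes that lost their call, Cd74 had 0.71 with 0.176, Tap1 0.62 with 0.252 and H2-K1 0.21 with 0.481. H2-Q10 had 1.06 with 0.1203 and Ciita 0.70 with 0.305. Without the term H2-Ke6 had 13.0, 18.1, 13.8 and 26.6 TMM-scaled FPKM in HUA1 to HUA4, against 29.9, 31.5, 23.2 and 31.4 in CTL1 to CTL4 (log2 change -0.70, SE 0.26, adjusted p = 0.0661). In HUA1, the 1 HUA library that is flat by GC content like CTL but not by length, 17 of the 37 genes (45.9%) were above all 4 CTL libraries and 3 below, where 35.8% of all tested genes were above and 33.2% below.

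**Figure D2:**
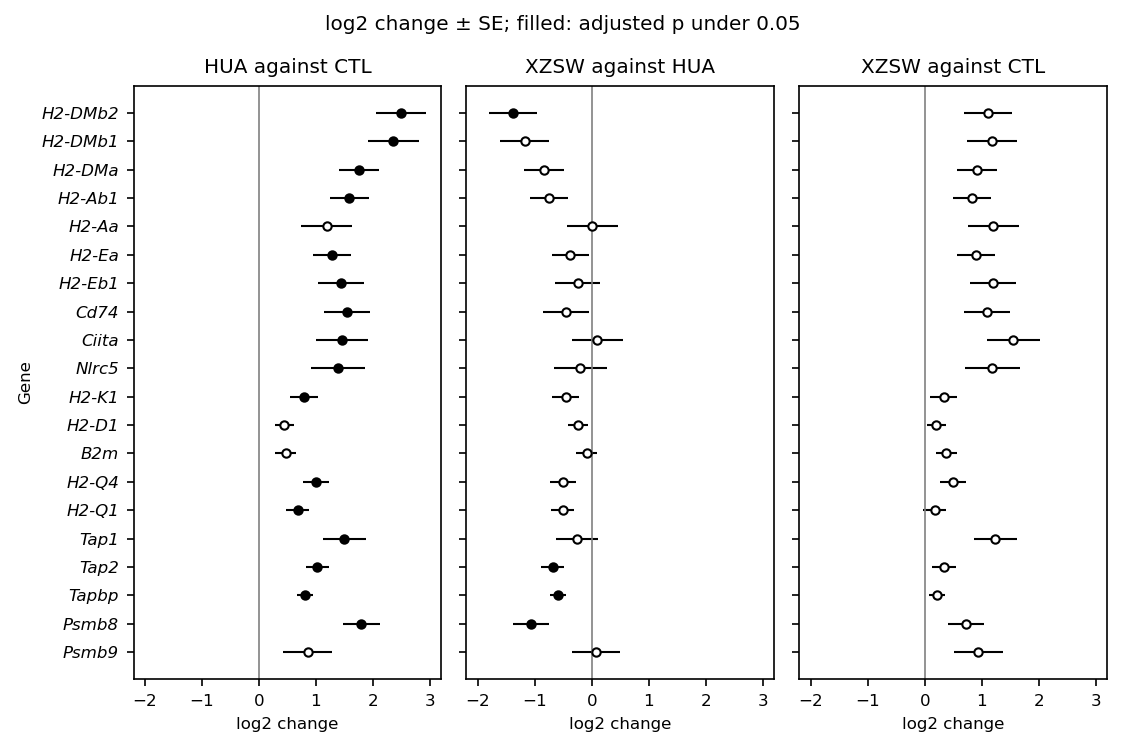
Log2 change with its standard error from the edgeR fit over 12 libraries for the 20 genes, with 1 panel for each of the 3 comparisons. Filled points have an adjusted p under 0.05: 16 of the 20 in HUA against CTL, 4 in XZSW against HUA and 0 in XZSW against CTL. The 20 include 4 genes plotted because they were called, so these counts are partly fixed by the choice. Of all 37 tested genes 17 rose in HUA against CTL, beside 14.9% of all genes. In XZSW against HUA 4 of the 37 were lower, beside 8.34%.

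In XZSW kidneys 4 of the 37 genes were lower than in HUA kidneys and 0 were higher, where 8.34% of all tested genes were lower and 7.09% higher (1649 and 1402 genes, or 2714 and 836 with library totals). At an unadjusted p under 0.05 the counts were 9 lower and 2 higher, where 15.8% of all genes were lower and 14.2% higher, and with DESeq2 5 lower and 0 higher of 36, where 12.3% of all were lower and 10.6% higher. The share of lower genes among the 37, 10.8%, was near that of all genes. The median log2 change was -0.24, beside 0.01 over all tested genes. In 5 of the 37 (H2-DMb1, H2-DMb2, H2-Q1, Tap2 and Tapbp) all 4 XZSW libraries lay under all 4 HUA libraries, as they did in 9.11% of all tested genes, and in 0 they lay above, as they did in 8.97%. This comparison and the one of HUA with CTL share the 4 HUA libraries.

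Tapbp had 22.2, 18.5, 23.4 and 21.7 TMM-scaled FPKM in XZSW1 to XZSW4, below every HUA library (log2 change -0.60, SE 0.14, adjusted p = 0.0131). Tap2 had 4.46, 4.41, 5.83 and 4.98 in XZSW1 to XZSW4, also below every HUA library (log2 change -0.69, SE 0.20, adjusted p = 0.0367). H2-DMb2 had 1.44, 2.08, 5.30 and 4.90 in XZSW1 to XZSW4 (log2 change -1.38, SE 0.42, adjusted p = 0.0420), with its upper pair under the lowest HUA library. Psmb8 had 2.06, 1.60, 2.47 and 2.44 in XZSW1 to XZSW4 (log2 change -1.07, SE 0.32, adjusted p = 0.0364), with XZSW3 and XZSW4 just above HUA1. The 4 calls differed in how far they rested on single libraries: Tapbp was called in all 12 fits that left out 1 library. H2-DMb2 was lost in 7 of those fits, without CTL2, CTL3, HUA2, HUA3, HUA4, XZSW1 or XZSW2 (adjusted p of 0.0512 to 0.112). Psmb8 was lost in 8, without CTL2, HUA2, HUA3, HUA4 or any 1 of the XZSW libraries (0.0514 to 0.1001). Tap2 was lost in 7, without CTL1, HUA2, HUA3, HUA4, XZSW1, XZSW2 or XZSW4 (0.0509 to 0.0970). Without HUA2, HUA3, HUA4, XZSW1 or XZSW2, Tapbp alone was lower, as it was without a low-count filter. In the fit on the 8 libraries of the comparison Tap2 alone was lower, and Tapbp had a log2 change of -0.60 with an adjusted p of 0.0571. With the GC kind as a further term the lower genes were H2-DMb1, H2-DMb2, Tap2 and Tapbp, and H2-Ke6 was higher (log2 change 0.79, adjusted p = 0.0153), where 9.86% of all genes were lower and 8.49% higher.

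The other class II genes did not pass in XZSW against HUA. H2-DMb1 had 1.26, 1.61, 4.88 and 3.87 in XZSW1 to XZSW4 (log2 change -1.18, SE 0.43, adjusted p = 0.0822) and H2-DMa 1.25, 1.49, 3.88 and 3.44 (log2 change -0.83, SE 0.35, adjusted p = 0.128). The 4 values of H2-DMb1 lay under every HUA library, and for H2-DMa XZSW3 lay above HUA1. H2-Ab1 had 12.3, 16.8, 33.2 and 31.2 in XZSW1 to XZSW4 (log2 change -0.75, SE 0.34, adjusted p = 0.151), and Cd74 52.5, 88.3, 192 and 183 (log2 change -0.45, SE 0.40, adjusted p = 0.490). For H2-Aa (log2 change 0.01, adjusted p = 0.990), Ciita (log2 change 0.10, adjusted p = 0.913) and Psmb9 (log2 change 0.08, adjusted p = 0.927) the log2 change was near 0 and its sign turned when library totals were used. The chains of the factor that restrains H2-DM had positive log2 changes at levels near 0: H2-Oa had 0.143, 0, 0.607 and 0.546 in XZSW1 to XZSW4, against 0.0318, 0.0582, 0.0411 and 0 in HUA1 to HUA4 (log2 change 3.08, SE 1.31, adjusted p = 0.133), the largest log2 change of the 37 in size, and H2-Ob had 0.0379, 0.0758, 0.211 and 0.137, against 0.0571, 0.0781, 0.0846 and 0 (log2 change 1.06, SE 1.05, adjusted p = 0.548). B2m (log2 change -0.09, adjusted p = 0.792), H2-K1 (log2 change -0.46, adjusted p = 0.225) and Tap1 (log2 change -0.26, adjusted p = 0.687) also did not pass.

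Against CTL, 0 of the 37 genes were higher and 0 lower in XZSW kidneys by edgeR's quasi-likelihood test, where 2.72% of all tested genes were higher and 2.27% lower (538 and 449 genes, or 1221 and 224 with library totals). At an unadjusted p under 0.05 the counts were 16 higher and 0 lower, where 12.9% of all genes were higher and 10.2% lower. With DESeq2 they were 7 higher and 0 lower, where 7.14% of all were higher and 5.11% lower (the 7 were Cd74, Ciita, H2-Aa, H2-DMb1, H2-Eb1, H2-Q10 and Tap1). The median log2 change was 0.72, beside 0.04 over all tested genes. In 3 genes all 4 XZSW libraries stood above all 4 CTL libraries, as they did in 10.4% of all tested genes, and in 0 below, as they did in 11.3%. Those 3 were Ciita with 0.277, 0.203, 0.694 and 0.453 in XZSW1 to XZSW4 (log2 change 1.56, SE 0.46, adjusted p = 0.0668), Tap1 with 1.77, 1.46, 2.78 and 2.38 (log2 change 1.24, SE 0.37, adjusted p = 0.0704), and H2-M3, which presents formylated bacterial peptides, with 0.835, 0.928, 1.40 and 1.42, against 0.784, 0.699, 0.283 and 0.743 in CTL1 to CTL4 (log2 change 0.86, SE 0.36, adjusted p = 0.169). Ciita and Tap1 came past the threshold in the fit on the 8 libraries of the comparison, with adjusted p-values of 0.0328 and 0.0169.

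The XZSW group was divided along the GC kind. In 27 of the 37 tested genes (73%) XZSW3 and XZSW4 both stood above XZSW1 and XZSW2, an order found in 27.9% of all tested genes, and in 0 of the 37 both stood below, an order found in 27% of all. H2-Eb1 had 11.5, 18.3, 44.9 and 31.3 in XZSW1 to XZSW4, H2-Ea 33.1, 41.6, 87.3 and 59.7 and H2-Aa 4.30, 8.52, 17.1 and 13.3. In all 3 chains XZSW1 lay within the CTL range, and XZSW3 and XZSW4 lay above every CTL library. The part of the GC kind and of the length slope in this division was not tested. Both XZSW3 and XZSW4 were above every CTL library in 27 of the 37 (73%), against 23.3% of all tested genes. Both XZSW1 and XZSW2 were within the CTL range in 20 (54.1%), against 21.3%.

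Set apart by kind, a choice made after the data were seen, the gap between XZSW and HUA was uneven. Among flat libraries H2-DMb1 averaged 1.43 TMM-scaled FPKM in XZSW1 and XZSW2, against 5.65 in HUA1, a log2 difference of -1.99. Among rising libraries it averaged 4.38 in XZSW3 and XZSW4, against 6.90 in HUA2, HUA3 and HUA4, a log2 difference of -0.65. Cd74 averaged 70.4 in XZSW against 121 in HUA among the flat libraries, and 188 in XZSW against 195 in HUA among the rising ones. Among flat libraries, where HUA has 1 library, XZSW lay wholly under HUA in 15 of the 37 genes (40.5%) and wholly above it in 13 (35.1%), shares near the 39.8% and 39.2% of all tested genes. Among rising libraries it lay wholly under HUA in 11 (29.7%) and wholly above it in 4 (10.8%), where 22.3% of all lay under and 22.7% above. With 2 libraries against 1 and 2 against 3, no test was made of these values.

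**Figure D3:**
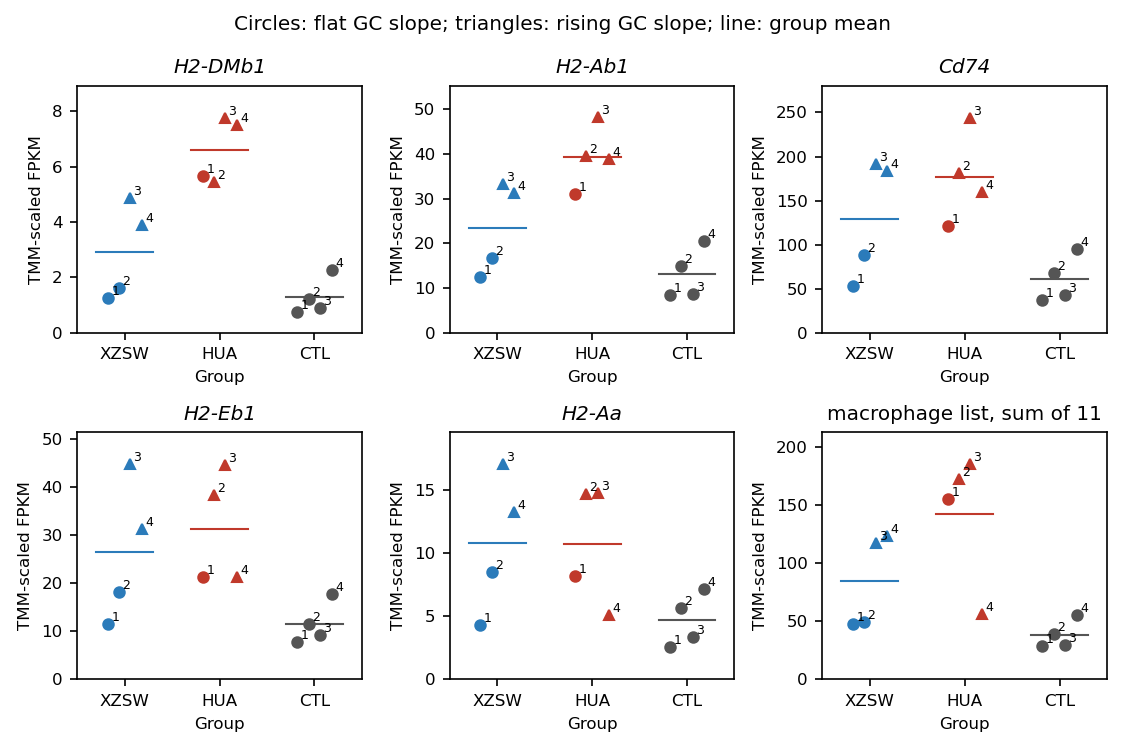
TMM-scaled FPKM in each library for 5 class II genes and, in the last panel, the sum of 11 macrophage markers, with XZSW, HUA and CTL from left to right, the library number beside each point and the group mean as a line. XZSW3 and XZSW4 lie above XZSW1 and XZSW2 in every panel, and HUA4 is near the CTL libraries for the macrophage sum and H2-Aa but not for H2-DMb1, H2-Ab1 and Cd74.

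The libraries of the other groups also kept an order over the genes. CTL4 was the highest CTL library in 26 of the 37 genes (70.3%), against 26.8% of all tested genes, and HUA1 the lowest HUA library in 25 (67.6%), against 29.7%. Without CTL4, 20 of 39 tested genes rose in HUA against CTL, where 12.4% of all tested genes rose. Without HUA1 the count was also 20 of 39, where 17.6% of all rose. Without CTL3 it was 11 of 38, the lowest among the fits that left out 1 library, where 11.2% of all rose.

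Most markers of macrophages and of leukocytes as a whole rose in HUA, as most class II genes did, and few markers of other immune cells did. Among 11 macrophage markers 9 rose in HUA against CTL, led by Itgam (log2 change 4.07), Cd68 (2.67) and Cx3cr1 (2.60), and Adgre1 and Csf1r did not pass. Of all tested genes 14.9% rose. In XZSW against HUA 3 of the 11 were lower (0 to 4 without 1 library), where 8.34% of all tested genes were lower. In XZSW against CTL 4 of the 11 were higher (1 to 5 without 1 library), where 2.72% of all were higher. The 11 summed to 47.1, 49.3, 117 and 123 TMM-scaled FPKM in XZSW1 to XZSW4, to 155, 172, 185 and 55.7 in HUA1 to HUA4 and to 28.1, 38.4, 29.3 and 54.9 in CTL1 to CTL4, and 0 of the 11 were at 0 in all libraries. The lysozyme gene Lyz2 made up 15.7 to 53.3% of the sum in single libraries, with 14.0, 18.8, 62.2 and 65.5 in XZSW1 to XZSW4, 72.5, 67.9, 55.9 and 8.76 in HUA1 to HUA4 and 8.65, 9.29, 10.9 and 19.6 in CTL1 to CTL4. HUA4 stood near CTL4 in the sum, but without Lyz2, a split made after the values were seen, the other 10 markers summed to 46.95 in HUA4, against 18.3 to 35.2 in CTL. Cd68 was at 7.80 in HUA4, against at most 1.42 in CTL, while Adgre1, Csf1r and Mrc1 in HUA4 were below the highest CTL library. HUA4 stood near CTL4 for H2-Aa and H2-Ea, but among HUA libraries it held the highest or next highest value of H2-DMa, H2-DMb1, H2-DMb2, Psmb8, Tap1 and Tapbp. In XZSW the sum was lower in XZSW1 and XZSW2 than in XZSW3 and XZSW4, as for the class II chains, and without Lyz2 it was 33.05, 30.5, 55.3 and 57.4 in XZSW1 to XZSW4. Not every marker was divided so: Cd68 had 5.37, 2.14, 3.45 and 4.42 in XZSW1 to XZSW4. Of 5 genes of all leukocytes 4 rose in HUA, with Ptprc the exception. These 5 summed to 5.68, 8.72, 12.6 and 13.4 in XZSW1 to XZSW4 and to 14.3, 15.9, 17.4 and 6.05 in HUA1 to HUA4. In CTL1 to CTL4 the sum was 3.01, 4.42, 2.17 and 6.36, so HUA4 lay inside the CTL range. In bulk kidney, more cells of a type and more RNA per cell cannot be told apart, and the part of these cells in the MHC result was not tested.

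Markers of other presenting and lymphoid cells were at low levels. In XZSW against HUA the median log2 change was 0.85 over 8 dendritic cell markers and 1.49 over 3 tested B cell markers. It was 1.13 over 7 tested T and NK cell markers, whereas over the 11 macrophage markers it was -0.73. Of 8 dendritic cell markers 1 rose in HUA against CTL, the integrin Itgax (log2 change 2.21, adjusted p = 0.00899), and their sum was 2.06, 5.03, 5.72 and 3.47 in XZSW1 to XZSW4, 2.61, 3.88, 2.78 and 1.25 in HUA1 to HUA4 and 0.889, 2.18, 1.69 and 2.36 in CTL1 to CTL4. Clec9a, a receptor of cross-presenting dendritic cells, was higher in XZSW than in HUA (log2 change 1.57, adjusted p = 0.0127). Of 6 B cell markers 1 was called in HUA against CTL, the antigen receptor subunit Cd79b (log2 change 2.06, adjusted p = 0.0492), which was lost in 9 of the 12 fits that left out 1 library. The 6, of which Ms4a1 and Pax5 were among those with too few counts for a test, summed to 2.02, 1.56, 4.61 and 7.24 in XZSW1 to XZSW4, 1.29, 2.60, 1.40 and 0.886 in HUA1 to HUA4 and 1.19, 1.39, 0.843 and 2.195 in CTL1 to CTL4. The heavy chain Ighm made up most of that sum, with 1.17, 1.41, 3.97 and 6.65 in XZSW1 to XZSW4, 1.17, 2.06, 0.853 and 0.614 in HUA1 to HUA4 and 1.13, 1.26, 0.762 and 2.06 in CTL1 to CTL4, and was not called in HUA against CTL (log2 change -0.15, adjusted p = 0.866). The 9 T and NK cell markers in the table summed to 2.76, 2.68, 4.72 and 8.83 in XZSW1 to XZSW4, 1.78, 3.497, 1.29 and 0.960 in HUA1 to HUA4 and 2.42, 3.01, 2.86 and 4.49 in CTL1 to CTL4. Both sums were highest in XZSW3 and XZSW4, the XZSW libraries with the higher class II levels, and their part in those levels was not tested. Of 7 tested T and NK cell markers 1 was called in HUA against CTL, Trac (log2 change -1.44, adjusted p = 0.0493), which was lost in 9 of the 12 fits that left out 1 library. Of 6 endothelial genes 1 was called, Kdr (log2 change -0.96, adjusted p = 0.0366), a count that became 0 or 2 in 7 of the fits that left out 1 library. Of 6 proximal tubule transporters 5 fell in HUA against CTL and 6 were higher in XZSW than in HUA, among them Slc22a6, which takes up organic anions (log2 change -2.25, adjusted p = 0.000424 in HUA against CTL, and log2 change 1.69, adjusted p = 0.00477 in XZSW against HUA).

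The partner genes of the 2 pathways were uneven. Of 9 genes of class I loading and peptide trimming 4 rose in HUA against CTL and 1 fell. Psmb10, the remaining catalytic subunit of the immunoproteasome, had 4.94, 9.81, 9.37 and 16.7 TMM-scaled FPKM in HUA1 to HUA4, against 2.48, 2.86, 3.14 and 4.08 in CTL1 to CTL4 (log2 change 1.69, SE 0.31, adjusted p = 0.00181). Tapbpl, a peptide editor akin to tapasin, and Psme1 and Psme2, which form the PA28 activator of the proteasome, also rose, with log2 changes of 1.01 (adjusted p = 0.00158), 0.65 (adjusted p = 0.0175) and 0.91 (adjusted p = 0.00432). The chaperone calnexin (Canx) fell (log2 change -0.44, adjusted p = 0.0389), a call lost in 8 of the 12 fits that left out 1 library. Of 7 constitutive proteasome subunits 2 were called, and Psmb7 (log2 change -0.65, adjusted p = 0.00322) and Psma3 (log2 change -0.35, adjusted p = 0.0480) both fell, with 1 of the 2 calls lost in 11 of the 12 fits that left out 1 library. In XZSW against HUA, Erap1, which trims peptides (log2 change -0.63, adjusted p = 0.00621), Tapbpl (log2 change -0.61, adjusted p = 0.0373) and Psmb10 (log2 change -1.03, adjusted p = 0.0384) were lower, a count of 3 that ranged from 1 to 5 without 1 library.

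Among 6 genes of class II processing the cathepsins Ctsl, Ctss and Ctsb rose in HUA against CTL, with log2 changes of 1.57 (adjusted p = 0.000471), 2.13 (adjusted p = 0.00379) and 0.75 (adjusted p = 0.0130). Of all tested genes 14.9% rose in that comparison, and 8.34% were lower in XZSW than in HUA. Cathepsin S is the protease known for cutting the invariant chain in macrophages and dendritic cells. The thiol reductase Ifi30 was not called (log2 change -0.02, adjusted p = 0.939). Ctsl was lower in XZSW than in HUA (log2 change -1.58, adjusted p = 0.00131), as was the asparagine endopeptidase Lgmn (log2 change -0.56, adjusted p = 0.0256), a count of 2 that ranged from 1 to 3 without 1 library.

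Of 11 regulators known to act on MHC promoters 1 (9.09%) rose in HUA against CTL, where 14.9% of all tested genes rose. The regulator that rose was Irf1, an interferon-induced factor, with 3.52, 2.61, 4.32 and 3.56 in XZSW1 to XZSW4, 8.85, 6.96, 7.17 and 4.94 in HUA1 to HUA4 and 1.81, 2.32, 1.99 and 2.31 in CTL1 to CTL4. The groups did not overlap (in HUA against CTL log2 change 1.73, SE 0.20, adjusted p = 9.77e-05). Irf1 was lower in XZSW than in HUA (log2 change -0.99, adjusted p = 0.00593) and higher in XZSW than in CTL (log2 change 0.73, adjusted p = 0.0480), where the call was lost in 8 of the 12 fits that left out 1 library. In XZSW against HUA 2 of the 11 regulators were lower, Irf1 among them, and 1 was higher. Of all tested genes 8.34% were lower and 7.09% higher there. The X box binders Rfx5 (log2 change -0.09, adjusted p = 0.716) and Rfxank (log2 change 0.19, adjusted p = 0.428) and the Y box binder Nfya (log2 change 0.05, adjusted p = 0.871) were not called in HUA against CTL. Of 6 tested genes of the interferon gamma axis 3 rose in HUA against CTL and 3 were not called, where 14.9% of all tested genes rose. In XZSW against HUA 3 of the 6 were lower, where 8.34% of all were lower. Both receptor chains rose in HUA and were lower in XZSW: Ifngr1 had a log2 change of 1.14 (adjusted p = 0.000553) in HUA against CTL and -1.14 (adjusted p = 0.00160) in XZSW against HUA, and Ifngr2 1.05 (adjusted p = 0.00313) and -1.22 (adjusted p = 0.00333). Socs1, a feedback inhibitor of the pathway, rose in HUA (log2 change 3.40, adjusted p = 0.00775). The transcript of interferon gamma itself, Ifng, had too few counts for a test.

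Costimulatory and MHC-like genes were partly called. Icam1, Cd86 and Cd40, which adhere to or signal to T cells, rose in HUA against CTL, 3 of 6 tested, with log2 changes of 1.27 (adjusted p = 0.000701), 1.98 (adjusted p = 0.00227) and 2.02 (adjusted p = 0.00775). Icam1 was lower in XZSW than in HUA (log2 change -1.33, adjusted p = 0.00155). Cd274, the inhibitory ligand PD-L1, was not called (log2 change 0.12, adjusted p = 0.818). Of 5 tested MHC-like genes, Mr1, which presents vitamin B metabolites, and Hfe, an iron regulator, rose, with log2 changes of 0.81 (adjusted p = 0.0140) and 0.83 (adjusted p = 0.0276), although 1 of these 2 calls was lost in 4 of the 12 fits that left out 1 library, and Fcgrt, the neonatal Fc receptor, fell (log2 change -0.52, adjusted p = 0.00670). The NKG2D ligand Ulbp1, the 1 tested of 5 in the table, did not pass in HUA against CTL (log2 change 1.15, adjusted p = 0.0534) and was lower in XZSW than in HUA (log2 change -1.35, adjusted p = 0.0429), a call lost in 8 of the 12 fits that left out 1 library.

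Within a library, the ratio of an immunoproteasome subunit to the constitutive subunit whose place it takes does not depend on the scaling of the library. It may still depend on the GC and length slopes of the library, and their part in the ratios was not tested. Psmb8 stood at 5.79, 4.23, 4.83 and 5.98% of Psmb5 in XZSW1 to XZSW4, at 5.89, 12.1, 5.99 and 7.23% in HUA1 to HUA4 and at 1.84, 2.2002, 1.56 and 3.27% in CTL1 to CTL4. Psmb10 stood at 22.3, 16.3, 24.5 and 24.5% of Psmb7 in XZSW1 to XZSW4, at 27.2, 42.7, 49.6 and 68.8% in HUA1 to HUA4 and at 7.84, 8.86, 9.01 and 12.02% in CTL1 to CTL4. For Psmb10 the 3 groups did not overlap, with XZSW between HUA and CTL, and for Psmb8 both XZSW and HUA lay above CTL. Psmb9 stood at 2.67, 2.16, 3.504 and 2.36% of Psmb6 in XZSW1 to XZSW4, at 2.32, 3.201, 1.07 and 2.40% in HUA1 to HUA4 and at 0.818, 1.63, 0.529 and 1.52% in CTL1 to CTL4, with HUA3 inside the CTL range. Ratios within a library show unequal change of the subunits, and Psmb7 itself fell in HUA against CTL. In XZSW against CTL all 7 constitutive subunits had negative log2 changes, with a median of -0.37. Of these 2 were called lower (0 to 2 without 1 library), where 2.27% of all tested genes were lower. In that comparison the log2 change of Psmb8 was 0.72 and that of Psmb9 0.94, and neither was called.

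The log2 ratio of Psmb8 to Psmb5 was higher by 1.81 in HUA than in CTL and by 1.27 in XZSW than in CTL, and its difference was -0.53 in XZSW against HUA. For Psmb10 to Psmb7 the differences were 2.26 in HUA against CTL, 1.21 in XZSW against CTL and -1.05 in XZSW against HUA. For Psmb9 to Psmb6 they were 1.04, 1.37 and 0.33 in the same order. The smallest p that 4 libraries against 4 allow in a two-sided exact permutation test, 0.0286, was reached in 6 of 12 such tests, and after adjustment over the 12 it was 0.0571, so none passed. Those 6 were the 3 of Psmb10, Psmb8 in both comparisons with CTL and Psmb9 in XZSW against CTL. Without HUA1 the adjusted p was 0.0490 for the Psmb8 and the Psmb10 ratio in the comparisons that use HUA. Each unadjusted p was again the smallest that the library numbers allow. The adjusted value came under 0.05 because more of the 12 tests reached that smallest p. Cd74 relative to H2-Ab1 differed by -0.07 in HUA against CTL, with an exact permutation p of 0.457 adjusted over the same 12 tests.

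**Figure D4:**
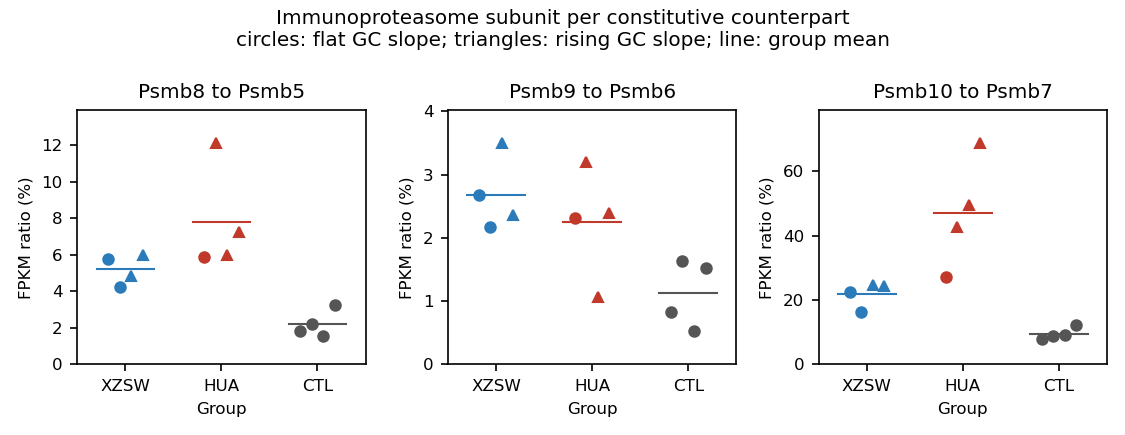
FPKM of the immunoproteasome subunits Psmb8, Psmb9 and Psmb10 as a percentage of the constitutive subunits Psmb5, Psmb6 and Psmb7 in each library, with XZSW, HUA and CTL from left to right and the group mean as a line. The Psmb10 ratio is 16.3 to 24.5% in XZSW, 27.2 to 68.8% in HUA and 7.84 to 12.02% in CTL.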

How the data were processed

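The labels' protocols record TRIzol extraction of kidney RNA and strand-specific libraries. The submitters' processing notes name cutadapt 1.9, HISAT2 2.2.1 and the build GRCm38. Not given in the sources used here were the counting tool, its strand setting and its annotation. The authors deposited 1 table, which per the file headers holds raw counts and FPKM values. Its column letters C, N and M stand for CTL, HUA and XZSW only through the sample descriptions. An exchange of N and M would exchange the HUA and XZSW values.

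Genes passing filterByExpr (19772) were tested with edgeR 4.0.16 in 1 quasi-likelihood fit of 12 libraries, with TMM factors of 0.856 to 1.15 and Benjamini-Hochberg adjustment over all tested genes. Standard errors came from the F statistic. FPKM were set to each library's count total and TMM factor. Alternatives used DESeq2 1.42.0 and limma 3.58.1, other scalings and filters, a term for GC kind (rising above a slope of 0.15), a replicate block and fits without 1 library each. The genes, lists, motifs and tests were chosen with earlier results of these data known. The 20 genes of the plots are 16 listed by name and 4 others called with a mean level of at least 1. Further genes are partners from lists, or members chosen after their values were seen. The edgeR script was tested on simulated counts. Replicate libraries differed beyond counting error (chi-square per degree of freedom of at least 25.8). R 4.3.3, Python 3.11.15, numpy 2.4.6, pandas 2.3.3 and matplotlib 3.10.9 were used.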

Additional observations from a re-analysis of the deposited data

Results flagged for a closer look

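Of 60 groups of 4 libraries, which are 20 genes in 3 groups, 2 held a library set apart from the other 3 by Dixon's test, which picks about 1 group in 20 by chance. Ciita was at 0.724 TMM-scaled FPKM in HUA2, while the other HUA libraries had at most 0.290. H2-Q4 was at 8.17 in XZSW2, while the other XZSW libraries had 10.4 to 10.8.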

How the results depend on the processing

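With the GC kind of library as a further term, the number of genes higher in HUA than in CTL was 7, against 17 without it. It was 16 to 25 under the other scalings, filters and tests, the 8 libraries alone and the replicate block. Without 1 library it was 11 to 20. The share of all tested genes higher moved too: 14.9% in the main fit, 12.8% with the GC term and 11.1 to 17.6% without 1 library. That share was 8.72% without a low-count filter, which gave the 16, and 29.6% with limma on log2(FPKM + 0.1), which gave the 25. The number lower, 0, was 1 with DESeq2, with the replicate block and with the GC term, and 0 to 1 without 1 library. Of all tested genes 14.9, 13.5 and 11.1% were lower in those fits in the same order, and 8.94 to 13.8% without 1 library. In XZSW against HUA the number lower, 4, was 1 without a low-count filter and 1 with the 8 libraries alone. It was 6 with the replicate block and 1 to 5 without 1 library. Of all tested genes 4.16, 4.78 and 8.06% were lower in those fits in the same order, and 4.98 to 10.5% without 1 library. The number higher, 0, was 1 with the GC term and 0 to 1 without 1 library. Of all tested genes 8.49% were higher with the GC term and 3.48 to 8.35% without 1 library. In XZSW against CTL the number higher, 0, was 2 with library totals and 7 with DESeq2. It was 1 with limma on log2(FPKM + 0.1), 2 with the 8 libraries alone and 0 to 1 without 1 library. Of all tested genes 6.18, 7.14, 7.81 and 6.9% were higher in those fits in the same order, and 0.405 to 4.32% without 1 library. The causes were not tested. Replicate numbers did not pair the libraries (correlations of deviations -0.0457 to 0.174). The replicate block gave 18 higher in HUA than in CTL and 0 in XZSW against CTL, where 14.1% and 2.05% of all tested genes were higher. Among the 20 genes of the plots, no called log2 change turned its sign under any alternative that was run.

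Over all genes in HUA against CTL, 2950 higher and 2538 lower became 5779 and 1320 with library totals, 5673 and 1414 with limma on log2(FPKM + 1) and 5862 and 1478 with log2(FPKM + 0.1). In XZSW against HUA, 1649 lower and 1402 higher ranged over 919 to 2714 and 520 to 1978 under other settings, and over 1007 to 2128 and 704 to 1689 without 1 library. In XZSW against CTL, 538 higher and 449 lower ranged over 334 to 1545 and 188 to 1347, and over 83 to 873 and 50 to 723. Without 1 library the log2 ratio of Psmb8 to Psmb5 differed by 1.57 to 2.01 in HUA against CTL and by -0.65 to -0.30 in XZSW against HUA, and that of Psmb10 to Psmb7 by 2.05 to 2.498 and by -1.28 to -0.84. Of marker and partner lists in HUA against CTL, 7 to 10 macrophage markers rose over all alternatives, 1 to 6 MHC regulators, 2 to 5 genes of the interferon gamma axis, 2 to 5 leukocyte genes and 0 to 1 B cell genes. Of all tested genes 8.72 to 29.6% rose over those alternatives. The 8 genes with at most 25 counts in any library were not tested.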
